A study of Bos taurus with 15 samples.

Results

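The genes described here encode collagens, basement membrane proteins, other proteins of the extracellular matrix, the enzymes and inhibitors that remodel it, and both platelet-derived growth factor receptors, measured in bovine testis. The 38 genes were chosen by name, and a probe belonged to a gene when its gene name, gene number, accession or description on the array named that gene. All 38 had a probe and were tested, of 13455 genes tested in all. They were represented by 49 probes, of which 46 were tested, and the probe with the highest mean over the arrays stood for its gene.

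The extracellular matrix of the testis lies mainly in the interstitium and in the wall of the seminiferous tubule, where a basement membrane separates the germinal epithelium from layers of collagen and peritubular myoid cells. Fibrillar collagens give tensile strength, laminins and type IV collagen form the sheet of the basement membrane, and elastin with fibrillins and fibulins gives recoil. Matrix metalloproteinases cut these proteins and tissue inhibitors of metalloproteinases (TIMPs) restrain them. Glucocorticoids are known for lowering collagen synthesis in skin and other connective tissues.

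Total RNA came from the testes of 15 cattle, 1 animal per single-colour Agilent oligonucleotide array. The control group was 7 untreated animals (controls 17, 18 and 20 to 24), and the prednisolone group was 8 animals (25 to 32) that received this synthetic glucocorticoid orally at 30 mg per head each day for 35 days. The labels name no genotype, breed or age, and the tissue was collected at slaughter. The comparison asked which transcripts of the testis differed between treated and untreated cattle.

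The sperm chromatin gene PRM1, the Leydig cell gene INSL3 and the Sertoli cell gene AMH were well above background on all 15 arrays. The share of probes well above background was 82.2% to 89.9% on 14 arrays and 36.4% on that of prednisolone 30. On this last array 23 of the 38 matrix genes were not well above background, while 35 of 38 were so on all 14 others. For this animal the scanner values and the authors' deposited table hold different measurements. Across the 38 genes, its scanner values lay at a median distance of 0.84 from the median of the other treated animals, and 17 genes lay 1 or more away. In the deposited table the distance was 0.15, and 2 of the 36 genes with a value there lay 1 or more away. Control 17, with 87.7% of probes well above background, stood apart in many of the matrix genes, as described below. Results are therefore given for all 15 animals and for the 13 without these 2. All levels are log2 processed signal minus the log2 of the array's 75th percentile, and a difference of 1 is a doubling.

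No matrix gene differed past the threshold after prednisolone. With limma, 0 of 38 passed an adjusted p of 0.05, as did 0% of all genes, and the smallest adjusted p among the 38 was 0.883. LAMB1 alone, 1 gene or 2.63% of the 38, had an unadjusted p under 0.05, against 2.42% of all genes. The difference, prednisolone minus control, was above 0 in 18 genes and below 0 in 20, with a median of -0.02 beside 0.01 over all genes tested. Scaling moved this split, with 8 genes higher under quantile normalization. In no gene were the 2 groups fully apart, which 0.0446% of all genes were, and none was over the 13 animals defined above, where 0.119% were.

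Without control 17 and prednisolone 30, the difference was above 0 in 25 of 38 genes, with a median of 0.11 beside 0.01 over all genes. An unadjusted p under 0.05 was reached by 6 genes, against 4.95% of all genes. LAMB1, THBS2 and LUM were lower, against 2.16% of all genes, and POSTN, FBLN5 and PDGFRB higher, against 2.79%. The smallest limma adjusted p of these was 0.931, so 0 passed. The share of the 38 was 15.8%, and genes of one tissue compartment are not independent of each other. Control 17 was left out because many of its matrix levels were high, and this choice itself raises the differences of those genes. Without control 17 alone the median was 0.15, and without prednisolone 30 alone it was -0.08. Control 17 was the highest control in POSTN, FBLN5 and PDGFRB. The values without both animals are therefore not a separate test of higher levels after prednisolone.

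The count of matrix genes at an unadjusted p under 0.05 was read in other settings too. It was 3 without control 17 alone (LAMB1, THBS2 and PDGFRB, against 2.2% of all genes) and 2 without prednisolone 30 alone (LAMB1 and LUM, 4.15%). The deposited table gave 3 (LAMB1, THBS2 and LUM, 5.42%), and array weights 6 (6.32%). With scan day as a block it was 3 (COL3A1, LAMB1 and PDGFRA, all lower, 1.76%), with slide as a block 2 (LAMB1 and LUM, 1.75%), and within scan day 1 alone 0 (0.862%). It was 2 under quantile normalization (LAMB1 and LUM, 2.23%) and under median scaling (2.27%).

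Over the 13 animals, 8 of 8 smooth muscle markers had higher values in treated animals, with a median difference of 0.30. So did 8 of 8 endothelial markers, with a median of 0.22, and 7 of 8 Sertoli cell markers, with a median of 0.18. Of all genes, 51.6% were higher, with a median of 0.01. Leydig cell markers had 5 of 6 higher (0.16), spermatid markers 6 of 7 (0.11) and macrophage markers 4 of 6 (0.05). Spermatocyte markers had 2 of 5 higher (-0.18) and epididymis and duct epithelium markers 1 of 6 (-0.19). Over all 15 animals the smooth muscle markers had 2 higher and 6 lower, with a median of -0.14, the endothelial markers 7 higher and 1 lower (0.16) and the Sertoli cell markers 4 of each (-0.03). Control 17 lay at least 1 above the other controls in 7 of 8 smooth muscle and 6 of 8 endothelial markers. Leaving it out therefore raises these differences, as it does those of the matrix genes. The smooth muscle list level ran from -0.30 to 0.39 in the 6 controls and from -0.12 to 0.58 in the 7 treated animals, and the endothelial level from -0.35 to 0.15 and from -0.10 to 0.19. Each smooth muscle and endothelial marker was well above background on at least 14 arrays. Their part in the matrix values was not tested. In bulk tissue, a change in the number of cells of a type and a change in RNA per cell cannot be told apart.

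**Figure D1:**
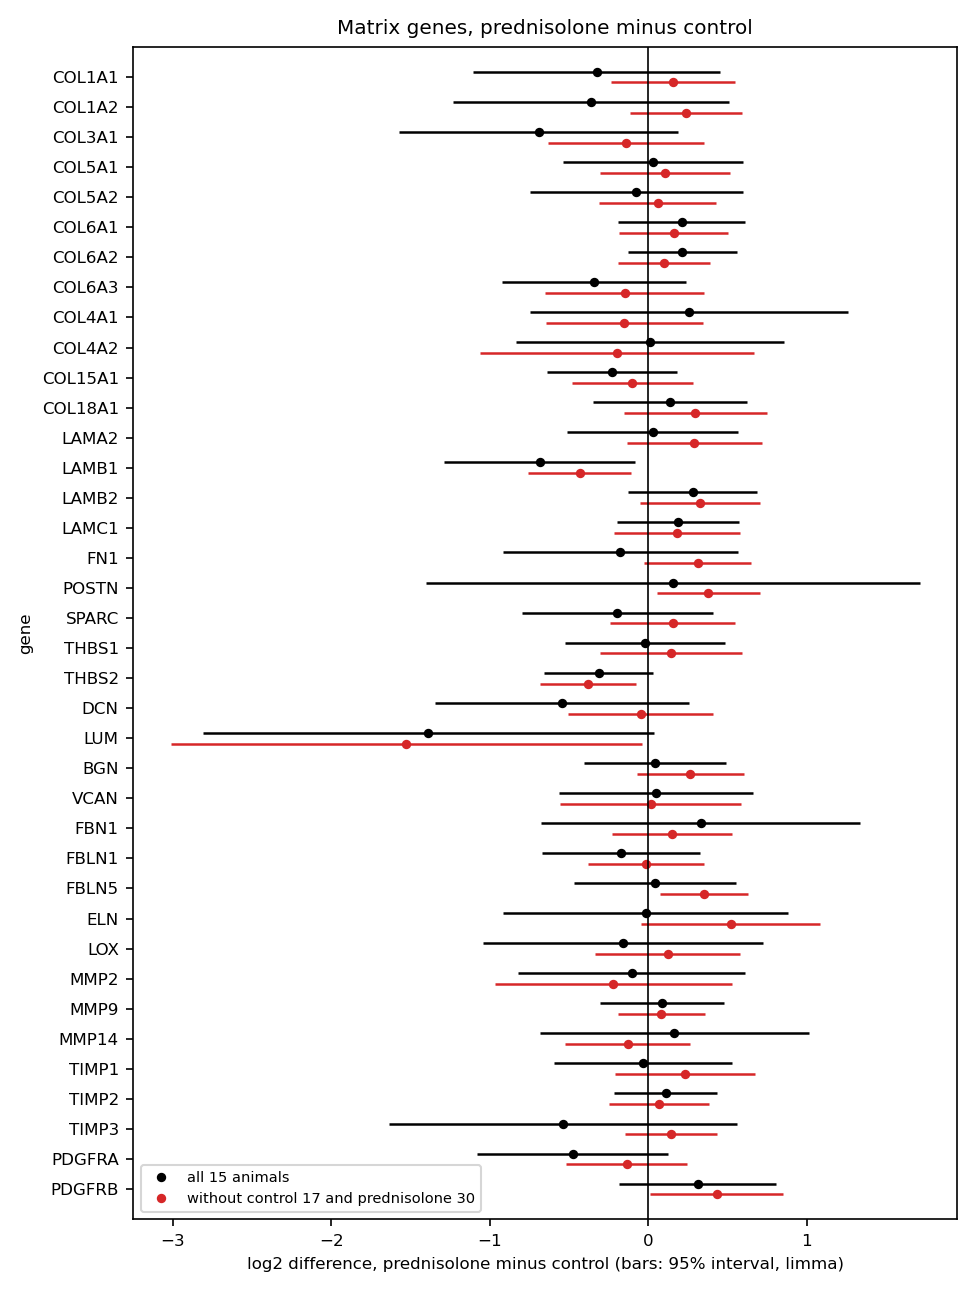
Difference in log2 level, prednisolone minus control (x axis), of each of the 38 matrix genes (y axis, grouped by role), as points with 95% intervals from limma. Black marks all 15 animals and red the 13 without control 17 and prednisolone 30. LAMB1 has an interval below 0 in both, from -1.29 to -0.08 and from -0.76 to -0.11, and the interval of LUM is the widest in the 13 animals.

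The fibrillar collagens COL1A1, COL1A2, COL3A1, COL5A1 and COL5A2 build the banded fibres of connective tissue. COL3A1, the chain of type III collagen, had the lowest p of these. Its level ran from -1.53 through a median of -1.05 to 1.47 in controls and from -2.71 through -1.51 to -0.61 in treated animals. Control 17 was the highest animal and prednisolone 30 the lowest, and the other 13 overlapped between -1.75 and -0.35. The difference was -0.69 ± 0.42 (SE), with an interval of -1.57 to 0.19, and -0.14 (-0.63 to 0.35) over 13 animals. COL1A2, a chain of type I collagen, had the highest mean of the group and ran from -0.55 through -0.31 to 2.28 in controls and from -1.89 through -0.01 to 0.32 in treated animals. The same 2 animals held its extremes, and its difference turned from -0.36 to 0.24 without them, with intervals that contained 0. COL1A1, the other type I chain, turned from -0.32 to 0.16. COL5A1 and COL5A2, minor chains that set fibre diameter, differed by 0.03 and -0.07 over all animals and by 0.11 and 0.06 over 13. A second probe of COL1A2, well above background on 11 arrays, differed by 1.02 over all animals and by 0.50 over the 13.

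Collagen VI forms beaded microfibrils that anchor cells to the fibrous matrix, and its 3 chains assemble together. COL6A2 ran from -2.59 through -2.31 to -2.04 in controls and from -2.47 through -2.25 to -1.60 in treated animals. COL6A1, the chain with the highest mean, ran from -0.77 through -0.26 to 0.12 and from -0.44 through -0.16 to 0.59. In both genes prednisolone 30 was the highest animal and the groups overlapped. COL6A2 differed by 0.22 ± 0.16 (SE, interval -0.12 to 0.56) and COL6A1 by 0.21 ± 0.19 (SE, -0.19 to 0.61), and over 13 animals the differences were 0.10 and 0.16. COL6A2 was the 1 gene whose difference was above 0 in all 31 settings tried. COL6A3 differed by -0.34 over all animals and by -0.15 over 13. Its second probe, well above background on 7 arrays, gave 0.84 and 0.56.

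Elastic fibre genes encode elastin (ELN), the microfibril protein FBN1, the fibulins FBLN1 and FBLN5, and lysyl oxidase (LOX), which cross-links elastin and collagen. FBLN1 had both the lowest p and the highest mean of this group. It ran from 0.61 through 1.16 to 2.43 in controls and from 0.78 through 0.99 to 1.74 in treated animals, with control 17 the highest. Its difference was -0.17 ± 0.24 (SE, interval -0.67 to 0.33), and -0.01 over 13 animals. FBLN5, which organises elastin into fibres, ran from -2.38 through -2.16 to -1.09 in controls and from -3.05 through -1.82 to -1.42 in treated animals. Prednisolone 30 was its lowest animal and control 17 its highest, and all 7 other treated animals lay above the mean of the 6 other controls. Its difference was 0.04 over all animals and 0.35 (0.07 to 0.63) over 13. With scan day as a block it was -0.17, but that value rests on scan day 1, which includes control 17 and prednisolone 30. ELN moved from -0.02 to 0.52 (-0.04 to 1.09), with prednisolone 25 and 26 at -1.16 and -1.51 above every other animal except control 17 at -0.31. LOX differed by -0.16 and FBN1 by 0.33 over all animals, and by 0.12 and 0.15 over 13.

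Among the adhesive glycoproteins, THBS2 encodes thrombospondin 2, a matricellular protein that limits angiogenesis. Its level ran from -2.55 through -2.05 to -1.62 in controls and from -2.49 through -2.47 to -1.94 in treated animals. Controls 20, 21 and 22 were the 3 highest animals, control 23, at -2.40, lay among the treated values and control 17 was the lowest of all. The difference was -0.31 ± 0.16 (SE, interval -0.65 to 0.03), and -0.38 (-0.68 to -0.08) over 13 animals. With scan day as a block it was 0.03, and with slide as a block 0.12. These values rest on scan day 1 and on slides 1 and 4, which include control 17 and prednisolone 30. The 3 high controls were scanned on days that held controls only, and the scan day and the group cannot be told apart there. SPARC, a collagen-binding protein with the highest mean of the group, ran from 3.57 through 3.93 to 5.38 in controls and from 2.95 through 3.98 to 4.65 in treated animals. Control 17 was its highest animal and prednisolone 30 its lowest, and it differed by -0.19 ± 0.28 (SE, interval -0.80 to 0.41), and by 0.15 over 13 animals. Fibronectin (FN1), which links collagen to integrins, went from -0.17 to 0.31 (-0.02 to 0.65) without the 2 animals. THBS1, thrombospondin 1, differed by -0.02 over all animals and by 0.15 over 13.

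POSTN encodes periostin, a matrix protein of remodelling connective tissue, and its probe stood well above background in 3 of 7 controls and 6 of 8 treated animals. Control 17 lay at -2.56 and the 6 other controls between -7.76 and -7.05. Of the treated animals, 7 lay between -7.17 and -6.44 and prednisolone 30 at -3.28, where the probe was not well above background. The difference was 0.16 over all animals and 0.38 (0.06 to 0.70) over 13. Most of these values are near the detection limit.

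The proteoglycans DCN, LUM and BGN encode small leucine-rich proteins that bind collagen fibrils, and VCAN encodes versican, a large hyaluronan-binding proteoglycan. LUM, lumican, ran from -4.82 through -4.36 to -3.89 in controls and from -8.73 through -5.13 to -3.79 in treated animals. Prednisolone 26 and 28 lay at -8.73 and -8.68, not well above background. Prednisolone 25 and 29, at -5.65 and -5.50, also lay below every control. Prednisolone 27, 30, 31 and 32, between -4.77 and -3.79, overlapped the controls, although prednisolone 30 was not well above background. The deposited table had prednisolone 26 and 28 lowest, at 2.29 and 2.34 on its log2 scale, with all others between 5.25 and 7.08. It comes from the same arrays and is not separate evidence. The difference was -1.39 ± 0.67 (SE, interval -2.81 to 0.04), and -1.52 (-3.01 to -0.04) over 13 animals. Without prednisolone 26 alone it was -0.96, and with normexp background correction, which lifts the lowest signals, it was -0.12, so its size depends on how the dim values are treated. BGN, biglycan, had the highest mean of this group and ran from 1.49 through 1.96 to 2.88 in controls and from 1.49 through 2.18 to 2.66 in treated animals. Its groups overlapped throughout, and it differed by 0.04 ± 0.21 (SE, interval -0.41 to 0.49), and by 0.27 over 13 animals. DCN, decorin, differed by -0.54 over all animals and by -0.05 over 13, and its second probe gave 0.53 and 0.38. VCAN differed by 0.05 over all animals and by 0.02 over 13, with prednisolone 29 at -5.22 below all other animals, which lay between -4.30 and -2.89.

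LAMB1, the laminin beta 1 chain of many basement membranes, was the basement membrane gene with the lowest p. Controls 17, 18 and 20 to 24 lay at 1.02, 1.53, 0.73, 0.70, 1.25, 1.09 and 0.64. Treated animals 25 to 32 lay at 0.59, 0.63, 0.52, 0.79, 0.22, -1.43, 0.50 and 0.66. All 8 treated animals were below the control mean, and only the range from 0.64 to 0.79 was shared between the groups. The value of prednisolone 30 was far below the others, whereas in the deposited table it lay at 11.4, inside the 11.1 to 11.6 of the other treated animals. The difference was -0.68 ± 0.28 (SE, interval -1.29 to -0.08), and -0.43 ± 0.15 (SE, -0.76 to -0.11) over 13 animals, and -0.46 in the deposited table. On the scan day that held both groups, controls lay at 1.02, 1.53 and 1.09 and the 6 treated animals at or below 0.66, with a difference of -1.02. This difference includes prednisolone 30 at -1.43, while the other treated animals of that day lay between 0.22 and 0.66. LAMB1 was lower in treated animals in all 31 settings, with a limma adjusted p of at least 0.662, so it passed in none.

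Laminins are trimers of an alpha, a beta and a gamma chain, and 3 more of these chains were measured. LAMB2, the alternative beta chain, differed by 0.28 (interval -0.13 to 0.69), LAMC1, the gamma 1 chain, by 0.19 (-0.19 to 0.57) and LAMA2, an alpha chain, by 0.03 (-0.51 to 0.57). LAMA2 was below 0 in 13 of 30 settings, LAMC1 in 1 of 30, quantile normalization, and LAMB2 in 1 of 31, within slide 1. Over 13 animals these 3 differed by 0.33, 0.18 and 0.29. Whether these differences differ from that of LAMB1 was not tested. COL18A1, the source of endostatin and the gene with the highest mean of this group, ran from 2.40 through 2.92 to 3.81 in controls and from 2.78 through 3.03 to 3.93 in treated animals. The groups overlapped, and it differed by 0.14 ± 0.23 (SE, interval -0.35 to 0.63), and by 0.30 over 13 animals. COL15A1, a related collagen beneath the basement membrane, differed by -0.23 over all animals and by -0.10 over 13. COL4A2, a chain of the type IV network, spread from -4.23 in control 24 to -1.64 in control 18 and differed by 0.01 (-0.83 to 0.86), and by -0.20 over 13 animals. COL4A1, its partner chain, was well above background in 4 of 7 controls and 5 of 8 treated animals and differed by 0.26 over all animals and by -0.15 over 13.

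**Figure D2:**
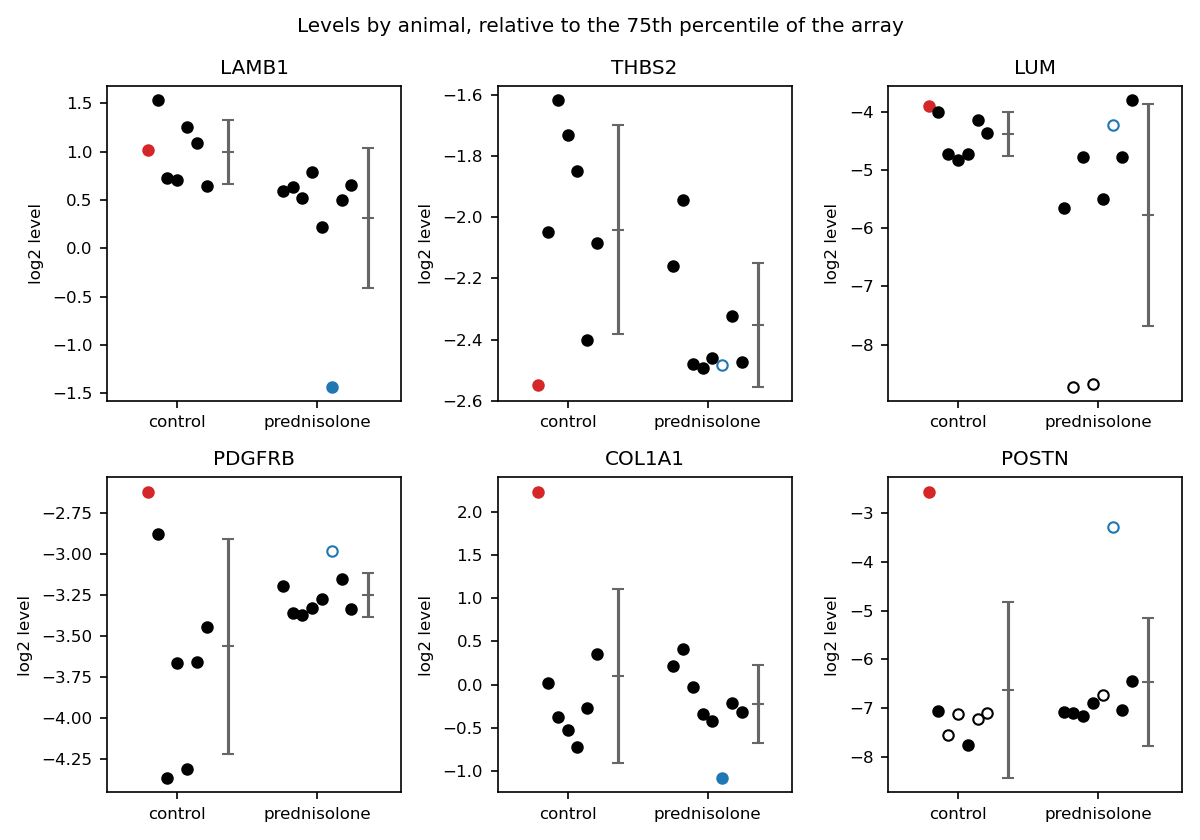
Log2 level relative to the array's 75th percentile (y axis) of 6 matrix genes in each control and prednisolone animal (x axis), with 1 point per animal. Red is control 17, blue is prednisolone 30, open points were not well above background, and grey marks show the mean and SD of each group. LUM has 2 treated animals at -8.73 and -8.68, and COL1A1 and POSTN have control 17 far above the other controls.

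The proteases MMP2 and MMP9 digest denatured collagen and type IV collagen, MMP14 is a membrane-bound protease that activates MMP2, and TIMP1, TIMP2 and TIMP3 inhibit them. TIMP3 ran from 0.32 through 0.67 to 2.02 in controls and from -3.12 through 0.74 to 1.04 in treated animals. Prednisolone 30, not well above background there, was the lowest animal and control 17 the highest. TIMP3 differed by -0.54 ± 0.52 (SE, interval -1.64 to 0.56), and by 0.15 (-0.14 to 0.44) over 13 animals. Its probe was assigned by its description, while its gene name and accession on the array are those of another gene, so its identity is uncertain. TIMP2, the group's highest mean, ran from 6.52 through 6.74 to 7.22 in controls and from 6.51 through 6.95 to 7.27 in treated animals. It had little spread, its groups overlapped, and it differed by 0.11 ± 0.15 (SE, interval -0.21 to 0.43), and by 0.07 over 13 animals. MMP2 differed by -0.10 over all animals and by -0.22 over 13, with prednisolone 25 at -1.22 and all other animals between 0.17 and 1.70. On its second probe prednisolone 25 lay at 0.04, above prednisolone 30 at -0.53, and the others between 0.25 and 1.18. MMP9, MMP14 and TIMP1 differed by 0.09, 0.16 and -0.03 over all animals and by 0.08, -0.13 and 0.23 over 13. Prednisolone 30, where MMP14 was not well above background, was its highest animal at -2.88.

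The platelet-derived growth factor receptors mark mesenchymal cells, PDGFRB in particular pericytes and smooth muscle. PDGFRA ran from -0.77 through -0.48 to 1.29 in controls and from -1.34 through -0.60 to 0.11 in treated animals. Control 17 was the highest animal and prednisolone 30 the lowest, and 7 of 8 treated animals lay below the control mean. It differed by -0.48 ± 0.28 (SE, interval -1.08 to 0.13), and by -0.14 (-0.52 to 0.25) over 13 animals. A second PDGFRA probe gave -0.54 and -0.31. PDGFRB ran from -4.37 through -3.66 to -2.62 in controls and from -3.37 through -3.30 to -2.98 in treated animals, so the treated values sat inside the control range. Its difference was 0.31 (interval -0.18 to 0.81), and 0.43 (0.01 to 0.85) over 13 animals. Controls 20 and 22, the 2 lowest at -4.37 and -4.31, shared a slide that held no other array. With slide as a block the difference was -0.11. That value rests on slides 1 and 4, which include prednisolone 30 and controls 17 and 18, the 2 highest controls at -2.62 and -2.88.

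Control 17 carried higher levels of many matrix genes than the 6 other controls. It lay at least 1 above their median in 21 of 38 genes, which 9.47% of all genes did, and at least 1 below in 0, against 5.25% of all genes. It was the highest of the 7 controls in 28 of the 38, against 24.4% of all genes. Over the 38 genes its median distance from the other controls was 1.07, beside -0.13 over all genes. It was the lowest control in 3 genes, COL6A2, THBS2 and MMP2, where 34.1% of all genes were lowest in this animal. The median over the 38 genes, each centred on its own median across arrays, was 0.94 in control 17, 0.34 in control 24 and 0.29 in prednisolone 27, and between -0.18 and 0.07 in the other 12. The values of control 17 are those of 1 animal and have no replicate.

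**Figure D3:**
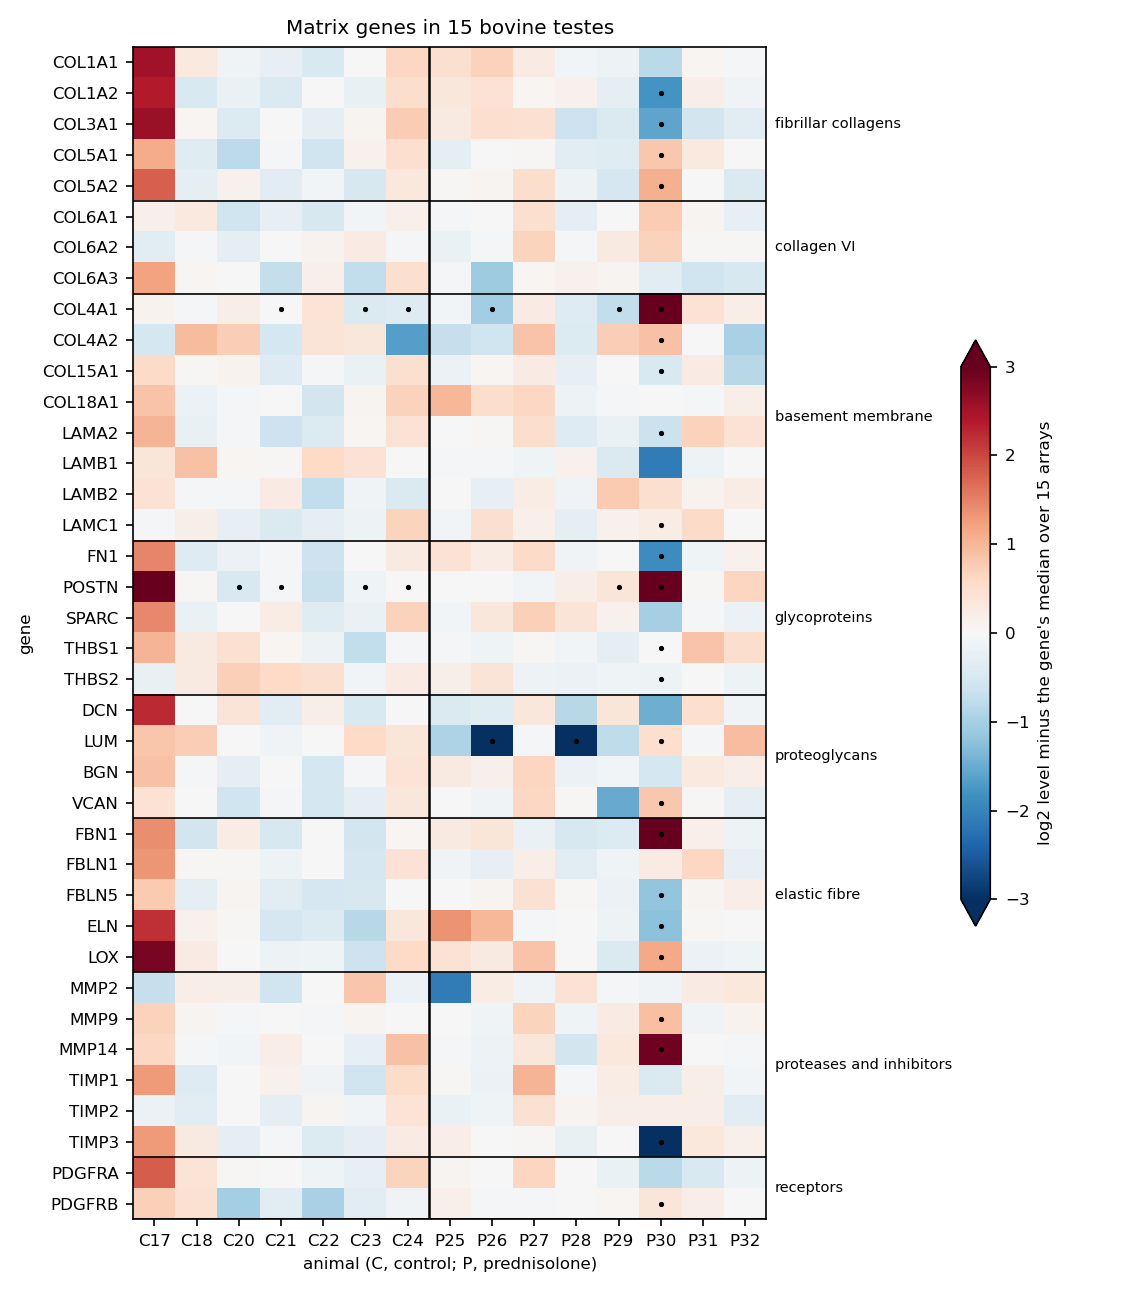
Log2 level of each matrix gene (y axis, in role groups) in each animal (x axis, C for control and P for prednisolone), minus that gene's median over the 15 arrays. Colour runs from -3 to 3, and dots mark values not well above background. The column of control 17 is high in fibrillar collagens and elastic fibre genes, and the column of prednisolone 30 holds most of the dots.

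By role, control 17 lay at least 1 above the other controls in 5 of 5 fibrillar collagens, 5 of 5 elastic fibre genes, 4 of 5 glycoproteins and 2 of 2 receptors. The counts were 1 of 3 for collagen VI, 1 of 8 for basement membrane genes, 1 of 4 for proteoglycans and 2 of 6 for proteases and inhibitors. Whether these role groups differ was not tested. COL1A1 lay at 2.24 in control 17 and between -0.73 and 0.35 in the 6 others, a distance of 2.56 from their median, or 5.90-fold. Control 18, on the same slide, lay at 0.01. COL1A2 and COL3A1 lay 2.60 and 2.55 above, COL5A2 1.98 and COL5A1 1.33. On the second probe of COL1A2, well above background on 11 arrays, control 17 lay 0.42 above, inside the range of the other controls. COL6A3, the collagen VI gene counted, lay 1.18 above, and 0.35 above on its second probe, well above background on 7 arrays. LOX lay 2.92 above, 7.55-fold, and ELN 2.38. POSTN was also past 1, but on only 2 of the 6 other control arrays was it well above background, so its distance is not given. DCN lay 2.22 above on the probe used and 0.18 above on its second probe, so the 2 probes disagree.

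Basement membrane genes were mixed in control 17. LAMB1, LAMC1 and COL4A1 lay 0.11, 0.18 and 0.14 above the median of the other controls and COL4A2 0.90 below it, all inside the range of those 6 animals. LAMA2, COL18A1, COL15A1 and LAMB2 lay 1.15, 0.90, 0.60 and 0.51 above, and control 17 was their highest control on the probes used. On second probes LAMA2 and LAMB2 lay 0.63 and 0.16 above and LAMC1 0.01 below. Outside the 38 genes, the other type IV chains COL4A3 to COL4A6 lay 1.18, 1.19, 1.33 and 1.99 above and the proteoglycans HSPG2 and AGRN 1.80 and 2.16 above, while the nidogen NID1 lay 0.03 above and LAMA3 1.09 below. TIMP1 and TIMP3 lay 1.34 and 1.45 above and TIMP2 0.14 below. MMP2 lay 0.79 below on the probe used and 0.59 above on its second probe. PDGFRA lay 1.79 above, and 1.82 on its second probe. Of genes that adjoin each other on the chromosome in assembly ARS-UCD2.0, COL5A2 and COL3A1 were both high, COL6A1 and COL6A2 lay 0.31 above and 0.29 below, and LUM and DCN lay 0.65 and 2.22 above.

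**Figure D4:**
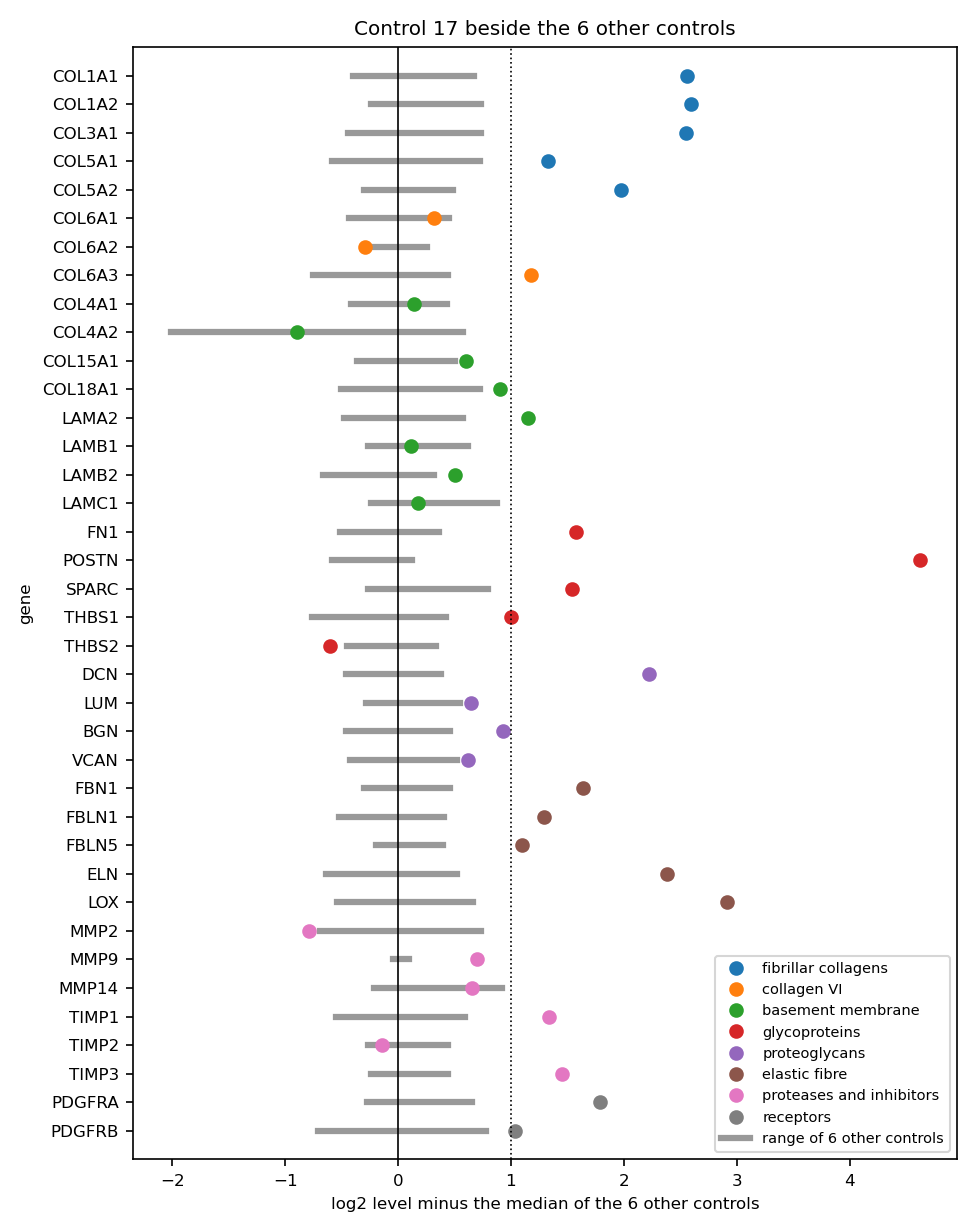
Log2 level of control 17 minus the median of the 6 other controls (x axis) for each matrix gene (y axis), coloured by role, with the range of the 6 others as a grey bar and a dotted line at 1. In 21 of 38 genes the point lies at or beyond the dotted line, and the point of POSTN is set against values mostly at the detection limit.

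Most markers of smooth muscle, endothelium and macrophages were also high in control 17. At least 1 above the other controls were 7 of 8 smooth muscle markers, with a median distance of 1.76, 6 of 8 endothelial markers (1.14) and 4 of 6 macrophage markers (1.23). Of all genes, 9.47% were. The endothelial gene VWF lay 0.53 below, and the macrophage genes AIF1 and CD14 lay 0.48 and 0.75 below, under every other control. The smooth muscle genes ACTA2 and DES lay 1.91 and 2.09 above, and the epithelial keratins KRT8 and KRT18 2.85 and 2.41 above, while the epithelial genes EPCAM and CDH1 lay 0.63 and 0.23 below. Leydig cell markers had 0 of 6 and Sertoli cell markers 1 of 8 past 1, with medians of 0.10 and 0.23. All 7 spermatid markers tested were lower in control 17, with a median of -0.72. Spermatocyte markers had a median of -0.74, although SYCP3 lay 1.25 above. The part of these cell types in the matrix levels was not tested.

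Apart from control 17 and prednisolone 30, animals with many high values came from both groups. Among the 13, prednisolone 27 was the highest animal in 12 of 38 genes, where it was highest in 17.5% of all genes. Control 24 was the highest in 8, against 6.14% of all genes, and control 22 the lowest in 9, against 9.95%. Prednisolone 27 and control 24 also had high smooth muscle levels, at 0.58 and 0.39, although prednisolone 32 reached 0.43 with a matrix median of -0.03. The SD within groups over these 13 animals had a median of 0.35 over the matrix genes, beside 0.28 over all genes, and 30 of 38 lay above the median of all genes. It was lowest in MMP9 and FBLN5, at 0.22 each, and highest in LUM (1.46), COL4A2 (0.84) and MMP2 (0.72).

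Other genes of the matrix pathway were read from a list of 136, of which 125 were tested. They comprise the remaining collagens and laminins, collagen-processing enzymes, further proteases, integrins and other receptors, and growth factors held in the matrix. Of these, 0 of 125 had an adjusted p under 0.05, 5 had an unadjusted p under 0.05, against 2.42% of all genes, and 51 had higher and 74 lower values, with a median of -0.06. Over 13 animals 66 had higher and 59 lower values, with a median of 0.02, and 10 had an unadjusted p under 0.05, 8 of them higher, against 4.95% of all genes. COL8A2, a short-chain collagen of basement membranes, differed by 0.93 ± 0.38 (SE), with 5 of 7 controls and 7 of 8 treated animals well above background. The integrin chains ITGAV and ITGA7, which bind vitronectin and laminin, differed by 0.58 ± 0.26 (SE) and 0.54 ± 0.25 (SE). ADAMTS9, a protease that cuts versican, differed by -0.69 ± 0.31 (SE), LAMB3, a laminin beta chain of epithelia, by -0.38 ± 0.18 (SE), and CCN2, connective tissue growth factor and the next by p, by -0.58 ± 0.29 (SE). Over 13 animals these 6 values shrank to 0.56, 0.46, 0.48, -0.40, -0.24 and -0.25, in the same order. There COL8A2 and ITGA7 had an unadjusted limma p of 0.038 and 0.013, and ITGAV, ADAMTS9, LAMB3 and CCN2 lay above 0.05. In control 17, 36 of the 125 lay at least 1 above the other controls, against 9.47% of all genes. At least 1 below were 3, against 5.25%. Furthest above were LOXL4, a lysyl oxidase, at 4.11, the collagen receptor DDR1 at 3.18 and the microfibril protein MFAP4 at 2.94.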

How the data were processed

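Spot intensity was read from the deposited scanner files, written by Feature Extraction 9.5.1.1 per the file headers. Its processed signal is background-subtracted and detrended, per the design text of the series. The authors also deposited a table of linear intensity for the same arrays. The submitters' processing notes name R 2.11.1, and the scaling of its columns is not stated there. Control and outlier spots were left out, spots of a probe averaged, and log2 values of the deposited processed signal set relative to each array's 75th percentile. A probe was tested when well above background on at least 7 of 15 arrays, which 18492 probes were. Names came from the array's annotation and a RefSeq gene table (assembly ARS-UCD2.0). Among the 49 matrix probes, 20 were named by accession, 15 by description, 9 by gene number and 5 by symbol. No coordinates are printed, since no source used here names the build of the array design.

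The tests were two-sided, from lmFit and eBayes of limma 3.58.1 (R 4.3.3), adjusted by Benjamini-Hochberg over all tested probes at a threshold of 0.05. The fit was tested on simulated data. The genes and lists were chosen with earlier results of these data known. Full values are given for the gene of each role with the lowest p and the one with the highest mean, and for any gene with an unadjusted p under 0.05. Other genes given in detail were chosen after their values were seen. The number of arrays limits the precision. Both groups were present on slides 1 and 4 and on scan day 1, and scan day is what the headers record, not the extraction. Differences with slide or scan day as a block rest on those arrays, which include control 17 and prednisolone 30. The p-values measure the spread between these animals. Alternatives were leaving out each animal, quantile and median scaling, normexp (offset 50), the authors' deposited table, other background filters, slide and scan day, array weights, the mean of a gene's probes and keeping outlier spots.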

Additional observations from a re-analysis of the deposited data

Results flagged for a closer look

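In 78 groups of values, 7 controls or 8 treated animals of a matrix gene or of the median over the matrix genes, the highest or lowest animal was tested for its distance from the nearest other animal by Dixon's ratio. It stood apart 25 times, where chance gives about 1 in 20 groups, or 3.9. Of these 25 values, 12 were in control 17, 9 in prednisolone 30, 2 in prednisolone 27, 1 in prednisolone 25 and 1 in prednisolone 29. The groups come from the same animals, and the median is made from the same genes, so the groups are not independent. The count of 25 beside 3.9 is therefore not a test against chance, and most of it comes from control 17 and prednisolone 30.

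In control 17, type I collagen was above the other controls, with log2 levels of 2.24 for COL1A1 and 2.28 for COL1A2, as were COL3A1 (1.47) and COL5A2 (-1.56). The same held for FN1 (-0.74), POSTN (-2.56), DCN (3.39), FBN1 (-3.27), ELN (-0.31), LOX (-1.44), MMP9 (-3.94) and TIMP3 (2.02).

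Prednisolone 30 stood below the other treated animals in COL1A2 (-1.89), LAMB1 (-1.43), FN1 (-4.10), FBLN5 (-3.05) and TIMP3 (-3.12). It stood above them in COL4A1 (-3.53), POSTN (-3.28), FBN1 (-1.44) and MMP14 (-2.88). LAMB1 alone among these 9 was well above background on that array.

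Prednisolone 27 stood above the other treated animals in TIMP1, at 0.012, and in the median over the 38 matrix genes, at 0.29. Prednisolone 25 stood below them in MMP2 (-1.22) and prednisolone 29 in VCAN (-5.22).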

How the results depend on the processing

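The count of matrix genes past the adjusted threshold was 0 in all 30 alternatives. The count at an unadjusted p under 0.05, 1 over all animals, was 6 without control 17 and prednisolone 30, 6 with array weights, 3 in the deposited table and with scan day as a block, 2 under quantile normalization, median scaling and slide as a block, and 0 within scan day 1. Slide 4 alone also gave 0, where 1 control met 2 treated animals, 1 of them prednisolone 30, so this count says nothing about stability. Leaving out 1 animal gave 0 to 3: 3 without control 17, 2 without prednisolone 30, control 23 or prednisolone 26, 27, 31 or 32, and 0 without control 18 or control 22, while the share of all genes ran from 1.47% to 4.15%. Genes with higher values, 18 of 38 over all animals, numbered 27 without control 17, 25 without both animals, 22 with array weights, 21 with normexp, 8 under quantile normalization, 11 with slide as a block, 9 with scan day as a block or within scan day 1, and 6 within slide 1, and 12 to 27 when 1 animal was left out. When probes had to be well above background on all 15 arrays, 15 genes were left and 6 had higher values. The median difference of -0.02 was -0.52 within slide 1, and lay between -0.09 and 0.15 when 1 animal was left out. ELN turned from -0.02 to 0.70 with array weights. The cause of these changes was not tested. The sign held in all settings in 7 of the 38 genes, 6 lower and 1 higher, and turned in 13 genes without both animals. For control 17, settings chosen after the data were seen (scaling, background, deposited table, outlier spots) gave a median level of 0.84 to 1.06 and 18 to 22 genes at least 1 above the other controls. No paired analysis was possible because the groups share no animal numbers. Dim probes limit POSTN, COL4A1 and LUM, which was well above background in only 5 of 8 treated animals.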
